A study of Homo sapiens with 18 samples.

Results

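The comparison described here sets human umbilical vein endothelial cells (HUVEC) cultured with MHC1+ extracellular vesicles (EVs) of Jurkat T cells against HUVEC cultured with IgG beads alone. The members are 6 of the 18 arrays of the series, 3 for the Jurkat MHC1+ EVs and 3 for the IgG beads, picked by the group name in the brackets of each sample title and not by any measured value. All groups are HUVEC, which the labels call a normal endothelial line and the design text sources from ATCC. The other groups are Jurkat CD63+ EVs, JinB8 MHC1+ EVs, JinB8 CD63+ EVs and untreated cells, with 3 arrays each. EVs were taken from serum-free medium of the T cells and captured on beads through MHC1 or CD63, and the co-culture lasted 3 days. Jurkat is a human T cell leukaemia line, and JinB8 is a Jurkat-derived line that lacks CD47. The media of triplicate T cell flasks were pooled before the EVs were purified, so each kind of EV is 1 preparation of 1 line. Nothing in the labels says that the 3 arrays of a group are separate HUVEC cultures, so that the spread behind each p-value is that of these arrays and may be technical.

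EVs are membrane particles that cells release, and CD63, a tetraspanin, and MHC class I molecules, which present peptides to T cells, are surface proteins by which they can be captured. Endothelial cells can take up EVs and with them lipids, proteins and small RNAs. Cholesterol is made from acetyl-CoA through mevalonate, squalene and lanosterol, and the genes of this route are switched on together by the transcription factor SREBP-2 when sterol in the endoplasmic reticulum is low. SREBP-1 does the same for fatty acid synthesis and desaturation, while INSIG1 holds both factors back when sterol is plentiful. Genes for the mitotic spindle and kinetochore are expressed in G2 and mitosis, and their promoters often hold CCAAT boxes and a cell cycle element known as CHR. Their level therefore follows the share of cells in division, and in RNA from a whole culture, fewer dividing cells and less RNA per dividing cell cannot be told apart.

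Expression was measured with a whole-transcript Affymetrix array as log2 RMA values, on which 1 unit is a doubling. Of 33297 probe sets, 19460 carried 1 gene symbol, and the probe set with the highest mean over the 18 arrays stood for each of 18417 genes. IgG beads replicate 3 and untreated replicate 3 stood apart from all other arrays, with a standard deviation over probe sets of 1.57 and 1.56 and a median correlation with the other arrays of 0.636 and 0.649. Jurkat MHC1+ replicate 1 lay between them and the rest, with an SD of 2.01 and a median correlation of 0.948. The remaining 15 arrays had SDs of 2.05 to 2.25 and median correlations of 0.975 to 0.992. Across the 18417 genes, which are not independent replicates, the deviation of Jurkat MHC1+ replicate 1 from replicates 2 and 3 correlated at r = 0.759 with that of IgG beads replicate 3 from replicates 1 and 2. Among the 10% of genes with the highest mean, replicate 1 lay a median of 0.52 below replicates 2 and 3. Calls were therefore made over all 18 arrays, over 16 arrays without IgG beads replicate 3 and untreated replicate 3, and over 15 arrays without Jurkat MHC1+ replicate 1 as well, and values of the 16-array fit are given for the gene sets and the leading genes. A further fit kept Jurkat MHC1+ replicate 1 among the 16 arrays and took the SD of each array as a covariate.

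**Figure D1:**
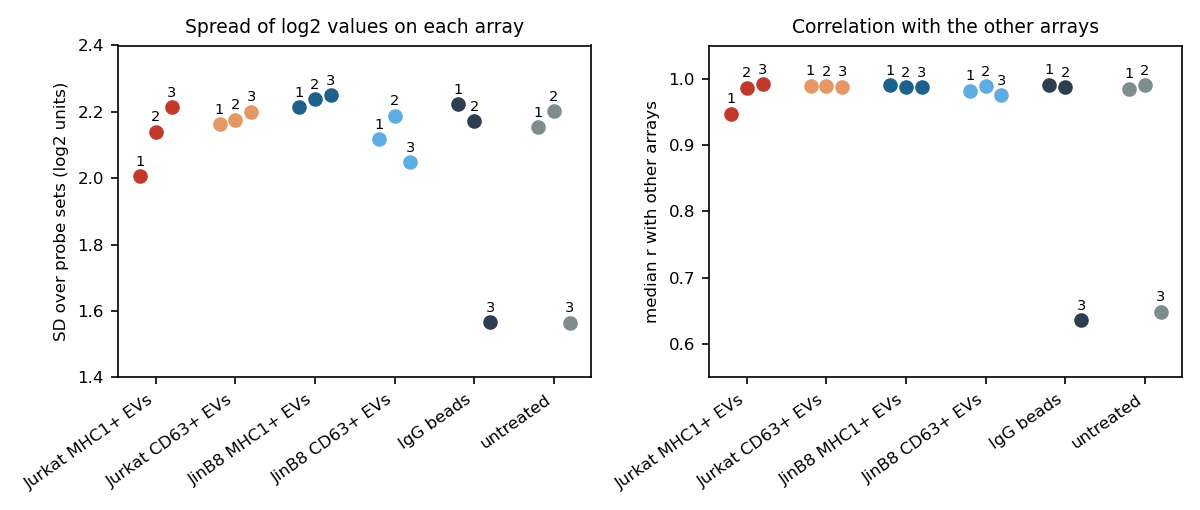
Quality of the 18 arrays by group, with replicate numbers above the points. The left panel plots the standard deviation of the log2 values over probe sets and the right panel the median Pearson r with the other arrays; IgG beads 3 and untreated 3 lie at 1.57 and 1.56 on the left, and Jurkat MHC1+ 1 lies at 2.01.

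The labelled cell type was checked with marker genes. The mean level of 28 endothelial genes was 8.46, 8.47 and 8.48 in the Jurkat MHC1+ EV arrays, against 8.48, 8.48 and 6.33 in the bead arrays. The mean of 19 T cell markers, the cells the EVs came from, was 4.45, 4.07 and 4.01 in the EV arrays, against 3.98, 4.14 and 5.11 in the bead arrays. T cell markers were thus highest on the arrays of low spread, and EV replicates 2 and 3 lay within the range of bead replicates 1 and 2. With 15 arrays the median difference was -0.02 for T cell markers, 0.07 for 11 monocyte markers, 0.06 for 13 fibroblast and smooth muscle markers and 0.05 for 9 epithelial markers.

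Against IgG beads, most genes of sterol and fatty acid synthesis were higher and most mitotic genes were lower in cells with Jurkat MHC1+ EVs. The median difference over 28 sterol and fatty acid genes was 0.85 with 18 arrays, 0.26 with 16 and 0.49 with 15. That over 59 mitotic genes was -0.36 with 18 arrays, -0.71 with 16 and -0.54 with 15. The 18 arrays include IgG beads replicate 3, and with them 28 endothelial identity genes also had a raised median, at 0.76. Over all 18 arrays no gene passed an adjusted p of 0.05 in limma (0 of 18417, 0.0%), and 219 genes (1.19%) had an unadjusted p under 0.05. The call count was also 0 (0.0%) with 16 arrays and 0 (0.0%) with 15 arrays, in which 414 genes (2.25%) had an unadjusted p under 0.05. The lowest adjusted p was 0.98 with 18 arrays, 0.16 with 16 and 0.14 with 15. With the array SD as a covariate 8 genes (0.0434%) passed, 5 of them higher (0.0271%) and 3 lower (0.0163%). DHCR7, FADS2, MSMO1, FASN and INSIG1 rose in that fit, and ASPM, CENPF and DLGAP5 fell. These 8 were also among the 80 genes (0.434%) called when limma weighted each array by its quality. In that fit IgG beads replicate 3 had a weight of 0.0199. Jurkat MHC1+ replicates 1, 2 and 3 had weights of 0.187, 5.36 and 0.957, so that the EV mean rested mostly on replicate 2. Both fits used the same EV arrays, so their calls are not independent of each other. When the bead and untreated cells of the 15 arrays were taken as 1 control group, 6 genes passed (0.0326%): DHCR7, SCD, FADS2, FASN and MSMO1 rose and ASPM fell. Leaving out the arrays of low quality thus gave no call by itself, and calls came with array weights, the SD covariate or the pooled controls, settings chosen with results of these data known.

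FASN, the synthase that builds palmitate, had values of 8.68, 8.70 and 8.44 in the EV arrays, against 7.48, 7.67 and 5.93 in the bead arrays. Its groups did not overlap, and EV replicate 1 was as high as replicate 2. The difference was 1.58 ± 0.37 (SE, n = 3 each) with 18 arrays (limma adjusted p = 0.98), 0.99 ± 0.17 with 15 arrays (adjusted p = 0.14) and 0.92 ± 0.15 with the array SD as a covariate (adjusted p = 0.031). DHCR7, which makes cholesterol in the last step of its synthesis, had values of 9.52, 9.73 and 9.92 with EVs, against 8.97, 8.71 and 4.66 with beads. All 3 EV arrays were above all bead arrays, and the difference was 2.27 ± 0.85 with 18 arrays and 0.98 ± 0.15 with 15, since bead replicate 3 lay more than 4 units below the other bead arrays. In the fit with the SD covariate it was 1.02 ± 0.13 (adjusted p = 0.0054).

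FADS2, the delta-6 desaturase of polyunsaturated fatty acids, had values of 10.24, 10.37 and 10.58 with EVs, against 9.74, 9.67 and 5.56 with beads. The groups did not overlap, and the difference was 0.77 ± 0.13 with 15 arrays and 0.82 ± 0.11 with the SD covariate (adjusted p = 0.0054). SCD, which puts the first double bond into saturated fatty acids, had values of 9.49, 10.30 and 10.43 with EVs, against 9.24, 9.59 and 5.91 with beads. Here EV replicate 1 fell between bead replicates 1 and 2, and the difference of 0.95 ± 0.17 with 15 arrays had an adjusted p of 0.15. MSMO1, a C4-methylsterol oxidase, had values of 8.62, 9.77 and 10.14 with EVs, against 8.99, 8.84 and 4.76 with beads. EV replicate 1 was below bead replicates 1 and 2, so that the groups overlapped, and replicates 2 and 3 were about 1 unit above them. The difference of MSMO1 was 1.04 ± 0.21 with 15 arrays (adjusted p = 0.28), the highest of all 18417 genes, and 1.08 ± 0.16 with the SD covariate (adjusted p = 0.014).

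No other enzyme of the cholesterol route passed the test with 18, 16 or 15 arrays or with the SD covariate. HMGCS1, which makes HMG-CoA, had values of 5.68, 7.53 and 7.63 with EVs, against 6.68, 6.52 and 5.11 with beads, so that EV replicate 1 lay below bead replicates 1 and 2 and the others about 1 unit above. CYP51A1, the lanosterol demethylase, had 8.10, 9.34 and 9.36 with EVs, against 8.66, 8.63 and 6.28 with beads, the same order of arrays. MVD, the mevalonate diphosphate decarboxylase, had 7.56, 7.24 and 7.18 with EVs, against 6.74, 6.77 and 6.96 with beads, and its groups did not overlap, with EV replicate 1 the highest. With 15 arrays the differences were 0.98 for HMGCS1, 0.72 for IDI1, 0.72 for LSS, 0.70 for CYP51A1, 0.80 for ACAT2, 0.58 for FDPS, 0.70 for EBP and 0.45 for MVD. ACAT2 makes acetoacetyl-CoA, IDI1 isomerises isopentenyl diphosphate, FDPS builds farnesyl diphosphate, LSS closes the lanosterol rings and EBP is a sterol isomerase.

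Taken by list, all 8 measured enzymes of the mevalonate stage and all 9 of the later cholesterol stage, 1 of them the probe set of the pseudogene HSD17B7P2, lay above beads with 15 arrays, where 48.9% of all genes did. Their medians were 0.52 and 0.70, against 0.00 over all genes, and 5 and 6 of them had an unadjusted p under 0.05 and were higher, against 0.836% of all genes. Of 11 fatty acid genes 10 were above beads, with a median of 0.37 and 4 at an unadjusted p under 0.05. Together the 28 genes had a median difference of 0.85 with 18 arrays, 0.26 with 16, 0.49 with 15 and 0.55 with the SD covariate. With 16 arrays, which keep EV replicate 1, 24 of the 28 were above beads. In that fit 6 were higher at an unadjusted p under 0.05, against 545 of all 18417 genes. None of the 28 was called with 18, 16 or 15 arrays (0.0% of all genes in each), and 4 were called with the SD covariate, against 0.0434% of all genes. By gene the differences with 16 arrays were 1.03 for FASN, 0.88 for DHCR7, 0.69 for FADS2, 0.66 for SCD and 0.60 for MSMO1, and that of the sterol sensor gene INSIG1 was 0.82. In 7 of the 28 all 3 EV arrays were above bead replicates 1 and 2, against 11.1% of all genes. In 4 of 28 the groups did not overlap with all arrays kept, against 2.16% of all genes. EV replicate 1 was below replicates 2 and 3 in 22 of the 28, against 38.5% of all genes.

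**Figure D2:**
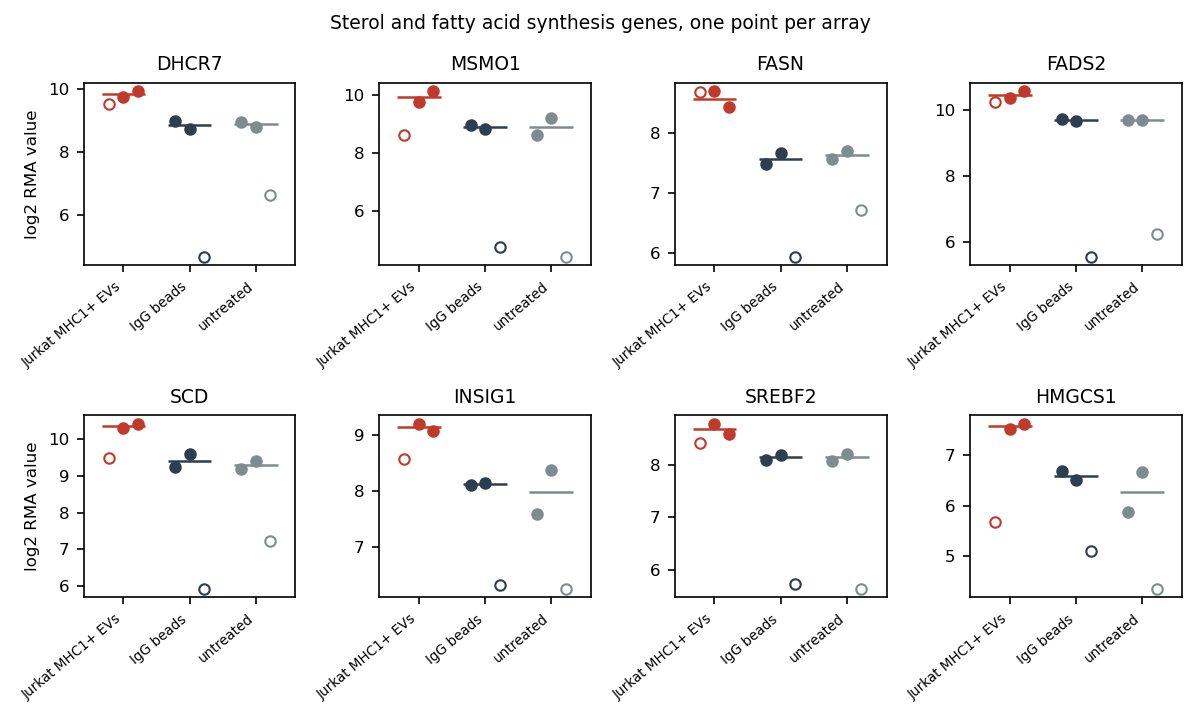
Log2 RMA values of sterol and fatty acid genes, one point per array, for cells with Jurkat MHC1+ EVs, cells with IgG beads and untreated cells. Open points are the arrays left out of the 15-array fit (Jurkat MHC1+ 1, IgG beads 3 and untreated 3) and lines are means of the other arrays; FASN lies at 8.44 to 8.70 with EVs and at 5.93 to 7.67 with beads.

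Among genes of sterol control, INSIG1, the sterol sensor that retains the SREBPs and is itself a target of them, had values of 8.56, 9.20 and 9.06 with EVs, against 8.10, 8.14 and 6.33 with beads. The groups did not overlap, and the difference was 1.41 ± 0.50 with 18 arrays, 1.01 ± 0.24 with 15 (adjusted p = 0.60) and 1.11 ± 0.18 with the SD covariate (adjusted p = 0.032). SREBF2, which encodes SREBP-2, had values of 8.41, 8.78 and 8.59 with EVs, against 8.09, 8.19 and 5.74 with beads. All its EV arrays were above all bead arrays, and the difference of 0.54 ± 0.13 with 15 arrays did not pass (adjusted p = 0.63). SLC25A1, the mitochondrial citrate carrier that supplies carbon for lipid synthesis, had 8.38, 8.37 and 8.32 with EVs, against 7.88, 7.72 and 7.50 with beads, without overlap and with a difference of 0.55 with 15 arrays. NPC1, which carries cholesterol out of lysosomes, had 8.47, 9.48 and 9.63 with EVs, against 9.24, 9.24 and 4.69 with beads, and its difference was 1.47 with 18 arrays, -0.05 with 16 and 0.32 with 15. ABCA1, an exporter of cholesterol, had 5.89, 6.30 and 6.45 with EVs, against 6.66, 6.82 and 5.58 with beads, a difference of -0.14 with 18 arrays and -0.37 with 15. The list of 10 genes of sterol sensing and uptake had a median of 0.08 with 15 arrays, and the list of 4 efflux genes 0.11.

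The promoter windows of SREBF2 and MSMO1 are shown because the SREBF2 promoter holds a known site of its own product and because MSMO1 had the highest difference. The windows run from 250 bases before to 50 after the annotated start and come from RefSeq on GRCh38.p14. They lie at chr22:41832855-41833154 on the plus strand for SREBF2 and at chr4:165327419-165327718 on the plus strand for MSMO1. Capitals mark the sterol element TCACCCCAC in SREBF2 and each CCAAT box, CCAAT or its complement ATTGG, in MSMO1.
SREBF2: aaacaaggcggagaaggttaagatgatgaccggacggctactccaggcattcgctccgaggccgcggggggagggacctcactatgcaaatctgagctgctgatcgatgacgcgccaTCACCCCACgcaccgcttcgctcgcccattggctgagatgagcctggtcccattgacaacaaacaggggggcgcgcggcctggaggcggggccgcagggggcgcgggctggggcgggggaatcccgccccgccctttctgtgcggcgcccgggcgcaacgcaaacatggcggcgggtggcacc
MSMO1: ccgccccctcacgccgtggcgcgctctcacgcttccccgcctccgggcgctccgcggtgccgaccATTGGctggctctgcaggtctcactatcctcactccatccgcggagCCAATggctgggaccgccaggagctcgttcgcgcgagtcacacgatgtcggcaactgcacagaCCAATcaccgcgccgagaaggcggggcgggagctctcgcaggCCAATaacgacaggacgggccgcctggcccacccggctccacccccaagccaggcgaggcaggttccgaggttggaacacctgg
The sterol element begins at -133 in the SREBF2 window, and the 4 CCAAT boxes of MSMO1 begin at -185, -139, -76 and -34. CCAAT boxes are bound by NF-Y, a partner of the SREBPs at many of their promoters. Of the 28 sterol and fatty acid genes, 24 had windows, 34 in all, and 23 of these windows (67.6%) held a CCAAT box on either strand, against 34.6% of 35116 windows of all genes. The exact letters TCACCCCAC were in 0 of the 34 windows, against 0.43% of all windows. These are matches of letters, and the motifs searched do not overlap each other.

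Of the genes that were lower with EVs, ASPM, which organises spindle poles, had values of 4.95, 5.18 and 5.85 in the EV arrays, against 6.73, 6.54 and 4.66 in the bead arrays. All 3 EV arrays were below bead replicates 1 and 2, and bead replicate 3 was lower than any of them. The difference was -0.65 ± 0.46 with 18 arrays (adjusted p = 0.98), -1.12 ± 0.19 with 15 (adjusted p = 0.14), the lowest of all 18417 genes, and -1.05 ± 0.15 with the SD covariate (adjusted p = 0.008). CENPF, a protein of the kinetochore, had 5.33, 5.99 and 6.21 with EVs, against 7.14, 6.76 and 4.98 with beads, in the same order. Its difference was -0.45 ± 0.55 with 18 arrays, -0.85 ± 0.17 with 15 and -0.81 ± 0.13 with the SD covariate (adjusted p = 0.031). DLGAP5, which stabilises spindle microtubules, had 5.12, 5.78 and 6.09 with EVs, against 7.27, 6.66 and 4.12 with beads. All its EV arrays were below bead replicates 1 and 2, and the difference was -1.03 ± 0.23 with 15 arrays and -0.92 ± 0.16 with the SD covariate (adjusted p = 0.034), but 0.27 when bead replicate 1 was left out of the 18.

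BUB1B, a kinase of the spindle checkpoint, had 4.99, 5.08 and 5.26 with EVs, against 6.31, 5.99 and 5.12 with beads. Bead replicate 3 fell among the EV arrays and the other 2 bead arrays were above, with a difference of -0.98 ± 0.19 with 15 arrays (adjusted p = 0.28). TOP2A, the topoisomerase that untangles chromosomes, had 5.84, 6.07 and 6.73 with EVs, against 7.53, 7.05 and 4.83 with beads. MKI67, the proliferation marker Ki-67, had 6.72, 7.12 and 7.25 with EVs, against 7.95, 7.72 and 6.96 with beads. In both genes all EV arrays were below bead replicates 1 and 2, while bead replicate 3 lay below the EV arrays of TOP2A and among those of MKI67. With 15 arrays the differences were -0.89 for TOP2A, -0.65 for MKI67, -0.90 for KIF23, a motor of cytokinesis, -0.53 for CEP55, a protein of the midbody, and -0.63 for TRIP13, which resets the checkpoint. The checkpoint gene SPDL1 had a difference of -0.60 with 15 arrays and 0.25 with 18. Beads were above untreated cells with 15 arrays by 0.349 for BUB1B and 0.378 for TRIP13. For TOP2A, MKI67, KIF23, CEP55 and SPDL1 that difference was 0.194, 0.096, 0.109, -0.092 and 0.205.

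Further kinetochore and kinase genes ran the same way at lower levels. The spindle protein gene HMMR had 3.18, 3.54 and 3.62 with EVs, against 4.55, 4.01 and 3.53 with beads, and NUF2, of the NDC80 complex, had 4.33, 4.35 and 4.72 with EVs, against 5.65, 5.12 and 4.0 with beads. CDK1, the kinase that starts mitosis, had 3.65, 3.81 and 4.30 with EVs, against 5.12, 4.36 and 4.23 with beads, so that EV replicate 3 lay just above bead replicate 3. With 15 arrays the differences were -0.70 for HMMR, -0.85 for NUF2, -0.68 for CDK1, -0.74 for CENPE, -0.74 for KNL1 and -0.63 for the polo-like kinase PLK1. None of the 6 passed the test with 18, 16 or 15 arrays. The EV values of HMMR, NUF2 and CDK1 were near or below the mean level of the T cell markers. That mean was 4.45, 4.07 and 4.01 on the EV arrays, and no detection call was used.

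All 18 kinetochore and checkpoint genes and all 19 spindle and cytokinesis genes lay below beads with 15 arrays, and 21 of 22 mitotic kinases and markers did, where 51.1% of all genes did. The medians were -0.55, -0.63 and -0.53, and 11, 14 and 12 of the genes were lower at an unadjusted p under 0.05, against 1.41% of all genes. Together the 59 genes had a median difference of -0.36 with 18 arrays, -0.71 with 16, -0.54 with 15 and -0.48 with the SD covariate. None was called with 18, 16 or 15 arrays (0.0% of all genes in each), and 3 were called with the SD covariate, against 0.0434% of all genes. With 16 arrays the differences were -1.31 for ASPM, -1.11 for CENPF, -1.30 for DLGAP5 and -1.04 for BUB1B. In that fit 46 of the 59 genes were lower at an unadjusted p under 0.05, against 1173 of all 18417 genes. In 38 of the 59 all 3 EV arrays were below bead replicates 1 and 2, against 11.8% of all genes, and in 7 of the 59 the groups did not overlap with bead replicate 3 kept, against 1.59%. EV replicate 1 was below replicates 2 and 3 in 48 of the 59, against 38.5% of all genes. Leaving out this array took the median of the 59 from -0.71 with 16 arrays to -0.54 with 15. It took that of the 28 sterol and fatty acid genes from 0.26 to 0.49. Keeping the array thus made the mitotic difference larger and the sterol difference smaller, and why it lay lower was not tested. Of 29 genes of DNA replication 23 were below beads with 15 arrays, at a median of -0.20, and 6 were lower at an unadjusted p under 0.05. The replication factor CDC45 had a difference of -0.46, the ribonucleotide reductase subunit RRM2 of -0.53 and the replication clamp unloader ATAD5 of -0.71. With 15 arrays ATAD5 was also 0.354 higher with beads than in untreated cells, where RRM2 differed by 0.029 and CDC45 by -0.014. The 16 p53 targets had a median of -0.03.

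**Figure D3:**
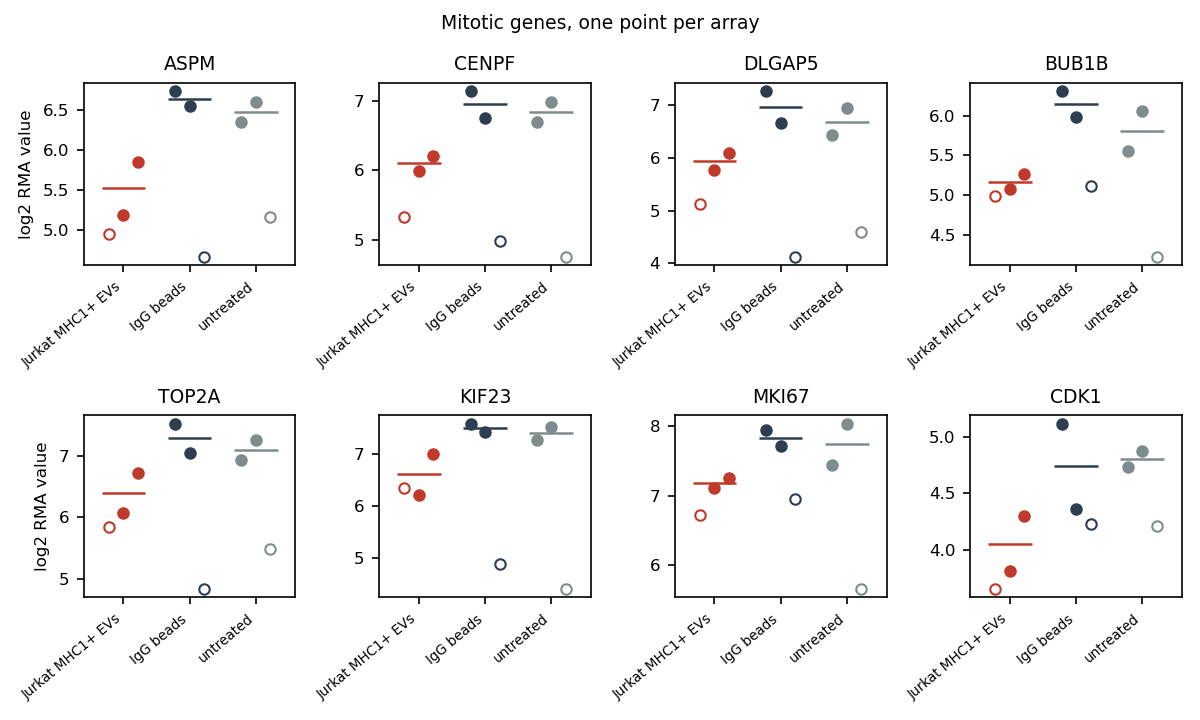
Log2 RMA values of 8 mitotic genes, one point per array, for cells with Jurkat MHC1+ EVs, cells with IgG beads and untreated cells. Open points are the arrays left out of the 15-array fit and lines are means of the other arrays; the EV arrays of ASPM lie at 4.95 to 5.85, below IgG beads 1 and 2 and above IgG beads 3.

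The windows of ASPM and CENPF are shown as 1 spindle gene and 1 kinetochore gene among the 3 mitotic genes that passed the test with the SD covariate. They lie on GRCh38.p14 (RefSeq) at chr1:197146620-197146919 on the minus strand for ASPM and at chr1:214602945-214603244 on the plus strand for CENPF. Capitals mark CCAAT boxes (CCAAT or ATTGG) and the CHR, searched as TTTGAA or its complement TTCAAA.
ASPM: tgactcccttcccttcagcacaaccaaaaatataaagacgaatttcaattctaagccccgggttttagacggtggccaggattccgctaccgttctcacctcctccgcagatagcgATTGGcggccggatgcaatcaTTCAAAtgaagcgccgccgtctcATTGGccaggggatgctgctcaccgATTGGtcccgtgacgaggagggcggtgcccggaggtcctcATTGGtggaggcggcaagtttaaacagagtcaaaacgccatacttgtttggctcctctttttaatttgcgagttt
CENPF: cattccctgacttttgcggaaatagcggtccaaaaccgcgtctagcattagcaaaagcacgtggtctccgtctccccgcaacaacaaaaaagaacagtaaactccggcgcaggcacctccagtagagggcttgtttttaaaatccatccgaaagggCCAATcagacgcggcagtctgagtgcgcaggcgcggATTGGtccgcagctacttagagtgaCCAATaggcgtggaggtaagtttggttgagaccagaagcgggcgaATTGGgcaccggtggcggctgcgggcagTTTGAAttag
ASPM had 4 CCAAT boxes, beginning at -134, -90, -65 and -25, and a CHR at -113. CENPF had 4, beginning at -94, -58, -33 and 13, and a CHR at 41. Of the 59 mitotic genes 49 had windows, 62 in all. A CCAAT box was in 45 of them (72.6%), against 34.6% of all windows, and the CHR letters were in 37 (59.7%), against 15.2% of all windows and 8.82% of those of the sterol and fatty acid genes.

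The other lists had medians of -0.20 to 0.22 with 15 arrays, apart from the pair of stanniocalcins. With 18 arrays the median was 0.76 for 28 endothelial identity genes, 0.82 for 36 interferon-stimulated genes and 0.57 for 65 ribosomal protein genes, and with 15 arrays it was 0.00, -0.20 and -0.03. With 16 arrays it was 0.02, -0.43 and -0.12. Of the 36 interferon-stimulated genes 34 lay below beads with 15 arrays, against 51.1% of all genes, and 2 were lower at an unadjusted p under 0.05, against 1.41% of all genes. RSAD2, an antiviral enzyme, had 7.92, 8.43 and 8.51 with EVs, against 9.06, 9.14 and 5.45 with beads, and a difference of -0.63 with 15 arrays but 0.40 with 18. CXCL11, a chemokine induced by interferon, had 6.77, 7.03 and 7.25 with EVs, against 7.82, 7.78 and 6.56 with beads, and a difference of -0.66 with 15 arrays. VCAM1, the adhesion receptor for leukocytes, had 4.35, 4.27 and 4.18 with EVs, against 4.86, 4.93 and 4.90 with beads. Its groups did not overlap and replicate 1 of the EVs and replicate 3 of the beads lay with the rest of their groups, at a difference of -0.63 with 18 arrays and -0.67 with 15 (adjusted p = 0.59). VCAM1 was, however, near the mean level of the T cell markers, which was 5.11 on bead replicate 3, and no detection call was used. The list of 13 adhesion genes to which it belongs had a median of -0.01.

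All 8 metallothioneins, small proteins that bind zinc and copper, were above beads with 15 arrays at a median of 0.22. MT1F had 7.57, 7.23 and 7.36 with EVs, against 6.98, 6.70 and 6.05 with beads, and 7.27, 7.05 and 7.62 in untreated cells. MT1E had 8.53, 8.35 and 8.44 with EVs, against 8.04, 7.97 and 6.66 with beads. The EV arrays of both genes were above all bead arrays, but the list median was -0.07 against untreated cells. Probe sets of different metallothioneins share much sequence, and their values are uncertain for each gene. Of the 24 genes of the unfolded protein response ASNS, the asparagine synthetase, was lowest at -0.69, and of 22 collagen genes and their modifiers the prolyl hydroxylase gene P3H2 at -0.59, around list medians of -0.14 and 0.00.

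**Figure D4:**
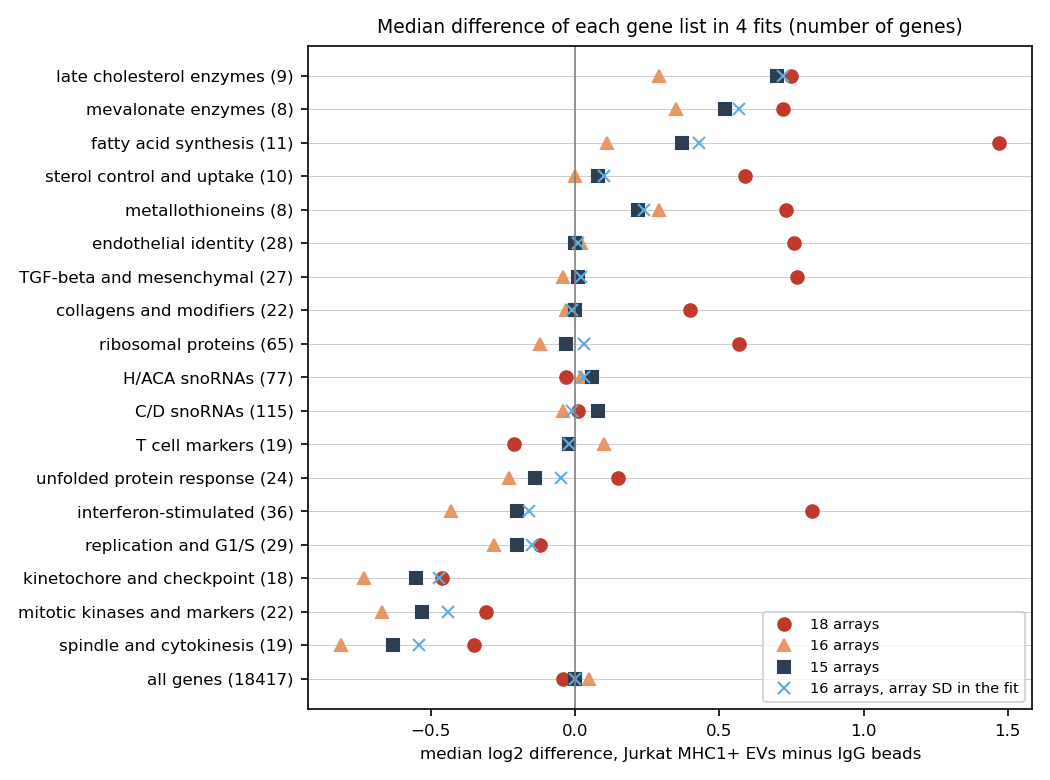
Median log2 difference between cells with Jurkat MHC1+ EVs and cells with IgG beads for each gene list, in 4 fits: 18 arrays (circles), 16 arrays (triangles), 15 arrays (squares) and 16 arrays with a term for the array SD (crosses). Lists of sterol synthesis lie above 0 and lists of mitosis below 0 in each of the 4. The interferon-stimulated list lies at 0.82 with 18 arrays and at -0.20 with 15, and the endothelial identity list at 0.76 and 0.00.

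Several genes outside the large lists were named by rule or for prior interest. STC1, a secreted glycoprotein named for its role in the calcium balance of fish, had 7.38, 7.36 and 7.07 with EVs, against 6.53, 6.66 and 6.94 with beads. The groups did not overlap, and the difference was 0.56 ± 0.18 with 18 arrays (adjusted p = 0.98) and 0.62 ± 0.15 with 15 (adjusted p = 0.60). Its paralog STC2 had 7.03, 7.30 and 7.27 with EVs, against 6.98, 7.19 and 5.75 with beads, a difference of 0.20 with 15 arrays. MXD4, a partner of MAX that opposes MYC, had 8.28, 8.19 and 8.18 with EVs, against 7.82, 7.79 and 7.36 with beads, without overlap and with a difference of 0.39 with 15 arrays. QPRT, an enzyme of NAD synthesis, and the chromatin protein gene BICRA had differences of 0.41 and 0.47. SNAPC1, a subunit of a complex that activates genes of small nuclear RNAs, had 6.15, 7.14 and 7.17 with EVs, against 7.95, 7.63 and 6.51 with beads, a difference of -0.64. CD47, the receptor that JinB8 cells lack, had 6.97, 8.59 and 8.84 in these HUVEC with EVs, against 8.93, 8.92 and 6.09 with beads, and a difference of -0.22 with 15 arrays but 0.15 with 18.

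The microRNA genes MIR32 and MIR21 were also lower with EVs when 15 arrays were used, though the array probes cannot tell a primary transcript from a mature product. Their mature 5p sequences are shown from RefSeq on GRCh38.p14, with the seed, bases 2 to 8, in capitals. They lie at chr17:59841273-59841294 on the plus strand for miR-21 and at chr9:109046272-109046293 on the minus strand for miR-32.
hsa-miR-21-5p: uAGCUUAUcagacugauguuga
hsa-miR-32-5p: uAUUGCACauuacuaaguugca
The seeds differ, so the RNAs belong to separate seed families. MIR32 had values of 3.82, 3.76 and 3.96 with EVs, against 4.72, 4.56 and 4.35 with beads. All its EV arrays were below all bead arrays, and the difference was -0.69 ± 0.17 with 18 arrays and -0.78 ± 0.16 with 15 (adjusted p = 0.28). MIR32 values were low, near the mean level of the T cell markers, and no detection call was used. MIR21, abundant in endothelium, had 6.91, 7.31 and 7.72 with EVs, against 8.57, 8.20 and 4.61 with beads, and a difference of -0.87 ± 0.22 with 15 arrays (adjusted p = 0.81) but 0.19 ± 0.83 with 18. In untreated cells MIR32 had 4.16, 4.31 and 4.33 and MIR21 7.43, 7.96 and 5.17, and against these the differences with 15 arrays were -0.37 and -0.18, smaller than against beads.

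Untreated cells give a second control. No gene passed over 18 arrays (0.0%) or 15 arrays (0.0%), and 9 passed with the SD covariate (0.0489%). FADS2, DHCR7, INSIG1, MSMO1, FASN and SCD rose in that fit and ASPM, CENPF and CXCL10 fell. FASN had 7.56, 7.70 and 6.71 in untreated cells and DHCR7 had 8.96, 8.78 and 6.61, all below the EV arrays given above. SCD had 9.18, 9.40 and 7.23 in untreated cells, also below all 3 EV arrays. With 15 arrays the differences from untreated cells were 0.94 for FASN, 0.95 for DHCR7, 0.77 for FADS2, 1.07 for SCD, 1.04 for MSMO1, 1.14 for INSIG1, -0.95 for ASPM and -0.74 for CENPF, each within 0.2 of the difference from beads. CXCL10, a chemokine induced by interferon gamma, had 3.96, 5.62 and 6.41 with EVs, against 6.69, 7.76 and 4.14 in untreated cells, so that replicate 1 of the EVs and replicate 3 of the untreated cells were both low.

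All 28 sterol and fatty acid genes were above untreated cells with 15 arrays, at a median of 0.65, and 20 were higher at an unadjusted p under 0.05, against 0.831% of all genes. With 16 arrays 25 of the 28 were above, at a median of 0.31. Of the 59 mitotic genes 57 were below untreated cells, at a median of -0.53, and 31 were lower at an unadjusted p under 0.05, against 1.7% of all genes. With 16 arrays 58 were below, at a median of -0.64. Both comparisons use the same EV arrays, so their values are not independent of each other. Between beads and untreated cells no gene passed in limma with 18 or 15 arrays, and 204 and 554 genes had an unadjusted p under 0.05.

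The other EV groups place these levels. The mean of the 9 later cholesterol enzymes was 7.22, 7.89 and 8.18 with Jurkat MHC1+ EVs, 8.05, 8.12 and 8.36 with Jurkat CD63+ EVs, 8.31, 8.60 and 8.40 with JinB8 MHC1+ EVs and 8.15, 8.57 and 8.03 with JinB8 CD63+ EVs, against 7.55, 7.27 and 5.56 with beads. The Jurkat MHC1+ replicate 1 was the only EV array within the range of the bead arrays, and a higher level was seen with all 4 kinds of EV. The mean of the 19 spindle genes was 5.19, 5.51 and 5.89 with Jurkat MHC1+ EVs, 6.06, 5.87 and 6.10 with Jurkat CD63+ EVs, 5.60, 5.57 and 5.75 with JinB8 MHC1+ EVs and 5.60, 5.66 and 5.41 with JinB8 CD63+ EVs, against 6.5, 6.13 and 4.65 with beads. All 12 EV arrays were below bead replicates 1 and 2.

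Against Jurkat CD63+ EVs, which differ in the capture protein and come from the same T cells, the Jurkat MHC1+ EVs left 1 gene lower. STC1 had 7.38, 7.36 and 7.07 with MHC1+ EVs, against 8.19, 8.28 and 8.21 with CD63+ EVs, without overlap. The difference was -0.96 ± 0.18 with 18 arrays (adjusted p = 1.0), where no gene passed (0.0%). It was -1.01 ± 0.13 with 15 arrays (adjusted p = 0.025), where STC1 alone passed (0.00543%), and -0.99 ± 0.12 with the SD covariate (adjusted p = 0.0047). In the JinB8 groups STC1 had 7.68, 7.84 and 7.49 with MHC1+ EVs and 8.78, 8.84 and 8.72 with CD63+ EVs. The order of its levels was thus beads and untreated cells, whose arrays overlap, then Jurkat MHC1+, JinB8 MHC1+, Jurkat CD63+ and JinB8 CD63+ EVs, with no overlap between neighbours among the EV groups, though the difference of -0.46 ± 0.13 between Jurkat and JinB8 MHC1+ EVs with 15 arrays did not pass (adjusted p = 0.21). The 28 sterol and fatty acid genes had a median difference of -0.10 between MHC1+ and CD63+ EVs with 15 arrays and of -0.35 with 16. With 15 arrays none had an unadjusted p under 0.05. With 16 arrays 8 were lower at that p, against 1307 of all 18417 genes. Of the 59 mitotic genes 56 were lower with MHC1+ EVs, at a median of -0.25 with 15 arrays and -0.41 with 16, and with 15 arrays 14 were lower at an unadjusted p under 0.05, against 1.35% of all genes.

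Against JinB8 MHC1+ EVs, which share the capture protein and come from the CD47-deficient line, small non-coding RNAs were lower with Jurkat MHC1+ EVs. With 18 arrays 6 genes passed (0.0326%), with 16 arrays 71 (0.386%), with 15 arrays 58 (0.315%) and with the SD covariate 39 (0.212%). All 6 of the first were among the 58, and 34 of the 39 were. The 58 were all lower, 49 of them being small nucleolar or Cajal body RNAs, which guide the chemical modification of ribosomal and spliceosomal RNA, and 4 others the vault RNAs VTRNA1-1, VTRNA1-2 and VTRNA1-3 and RMRP, the RNA of RNase MRP. The remaining 5 were TXN, CCL20, RNU4ATAC, UXT and NSMCE1, with differences of -1.14, -1.57, -0.93, -0.77 and -0.73, of which all but TXN were named after their values were seen.

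SNORA38B, an H/ACA guide on chromosome 17, had 6.69, 6.59 and 6.29 with Jurkat MHC1+ EVs, against 8.62, 8.71 and 8.53 with JinB8 MHC1+ EVs. The groups did not overlap, and the bead arrays, at 6.52, 6.32 and 5.93, lay with the Jurkat group. The difference was -2.10 ± 0.20 with 18 arrays (adjusted p = 0.00081), -2.18 ± 0.17 with 15 (adjusted p = 1.8e-05) and -2.27 with the SD covariate (adjusted p = 2.8e-06). SNORD38B, a C/D guide on chromosome 1, had 3.53, 4.69 and 4.42 with Jurkat MHC1+ EVs, against 6.83, 6.68 and 6.41 with JinB8 MHC1+ EVs, and 4.56, 4.05 and 3.26 with beads. Its difference was -2.43 ± 0.36 with 18 arrays (adjusted p = 0.041) and -2.09 ± 0.24 with 15 (adjusted p = 0.00081). Its neighbour in name SNORD38A, singled out after its values were seen, had 4.34, 4.48 and 4.14 with Jurkat MHC1+ EVs, against 5.83, 5.90 and 5.26 with JinB8 MHC1+ EVs, a difference of -1.34 ± 0.20 with 18 arrays (adjusted p = 0.045).

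SNORA65 had 6.19, 7.02 and 6.45 with Jurkat MHC1+ EVs, against 8.69, 8.90 and 8.69 with JinB8 MHC1+ EVs, and SNORD104 had 6.95, 7.16 and 6.96, against 8.62, 8.62 and 8.30. VTRNA1-1, a component of vault particles, had 3.39, 4.17 and 3.85 with Jurkat MHC1+ EVs, against 6.04, 6.06 and 6.11 with JinB8 MHC1+ EVs. None of these groups overlapped, and with 18 arrays the differences were -2.21, -1.49 and -2.26 (adjusted p = 0.049, 0.049 and 0.041). VTRNA1-2 and VTRNA1-3, of the same gene cluster on chromosome 5, differed by -1.43 and -1.07 with 15 arrays (adjusted p = 0.0036 and 0.026). The Jurkat MHC1+ values of VTRNA1-1 and SNORD38B were near the mean level of the T cell markers in these cells, and no detection call was used, so the true differences of these RNAs may be larger than those measured. SNORA50A had 6.06, 6.98 and 6.57 with Jurkat MHC1+ EVs, against 8.78, 8.88 and 8.64 with JinB8 MHC1+ EVs, and passed with 15 arrays at -1.99 (adjusted p = 0.0008) but not with 18 (adjusted p = 0.93).

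**Figure D5:**
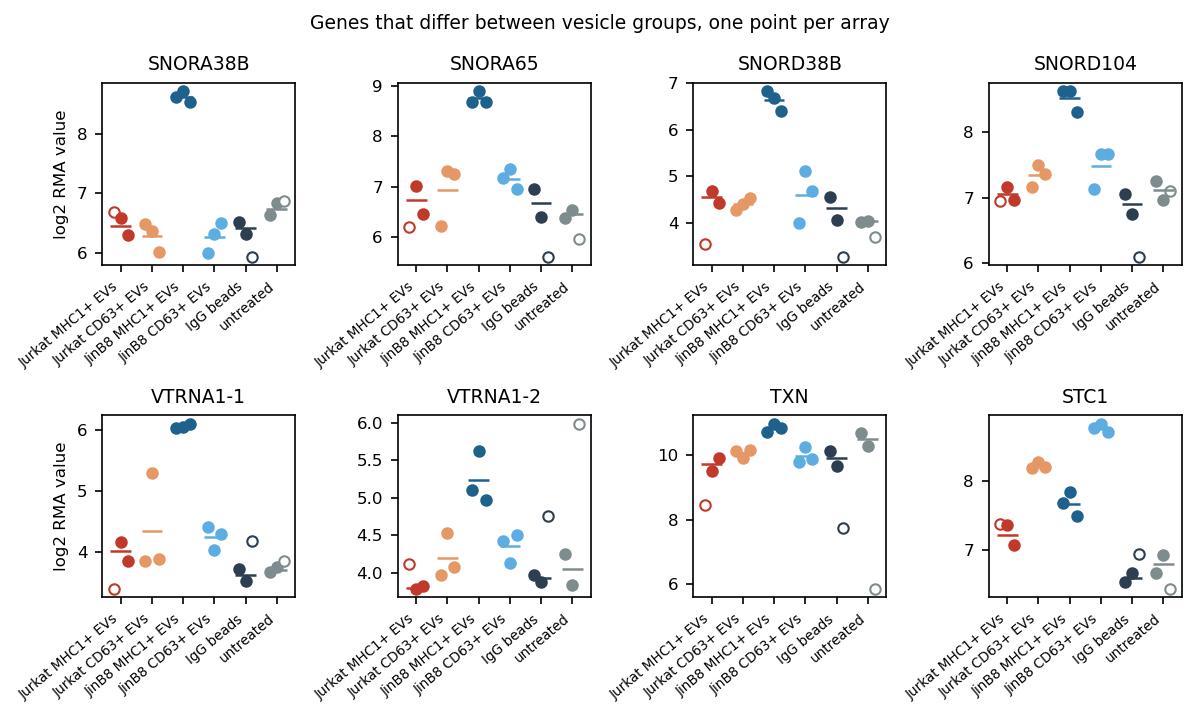
Log2 RMA values of small non-coding RNAs and of the protein-coding genes TXN and STC1, one point per array, in the 6 groups of HUVEC. Open points are the arrays left out of the 15-array fit and lines are means of the other arrays; SNORA38B lies at 6.29 to 6.69 with Jurkat MHC1+ EVs and at 8.53 to 8.71 with JinB8 MHC1+ EVs.

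Over the 192 small nucleolar RNAs measured, the median difference from JinB8 MHC1+ EVs was -0.65 with 18 and with 16 arrays, -0.50 with 15 and -0.53 with the SD covariate. With 18 arrays 5 were called, against 0.0326% of all genes, with 16 arrays 53, against 0.386%, with 15 arrays 49, against 0.315%, and with the SD covariate 32, against 0.212%. With 15 arrays 162 of them were lower and 104 were lower at an unadjusted p under 0.05, against 8.45% of all genes. Against beads the median of the 192 was 0.00 with 18 arrays and 0.07 with 15, and none was called. The mean level of the 77 H/ACA RNAs was 5.35, 5.69 and 5.48 with Jurkat MHC1+ EVs, 6.39, 6.38 and 6.30 with JinB8 MHC1+ EVs, 5.60, 5.78 and 5.67 with Jurkat CD63+ EVs and 5.58, 5.76 and 5.68 with JinB8 CD63+ EVs, against 5.63, 5.43 and 5.45 with beads. Only the JinB8 MHC1+ arrays stood above the rest. The spread of log2 values moved with the same contrast: its SD was 2.01, 2.14 and 2.21 on the Jurkat MHC1+ arrays and 2.21, 2.24 and 2.25 on the JinB8 MHC1+ arrays. The 65 ribosomal protein genes and 80 genes of the respiratory chain were lower too, with medians of -0.41 and -0.42 with 15 arrays and 40 and 42 members lower at an unadjusted p under 0.05, and none called. Of the 28 sterol and fatty acid genes 26 were lower with 15 arrays, at a median of -0.33 and 9 at that p, and none was called. Their median was -0.13 with the SD covariate. The 59 mitotic genes had a median of 0.03 with 15 arrays. Different kits are named for the RNA extraction in the sample labels and the series design, and how well either kept short RNAs was not tested.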

How the data were processed

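The values deposited by the authors are log2 signals of a whole-transcript Affymetrix array, taken as log2 from their range. Affymetrix Expression Console and RMA, which corrects background, quantile-normalizes and summarises probes, made them, per the submitters' processing notes, with no version stated in the sources used here. Biotin labelling used 300 ng of total RNA, per the labels' protocols. Of 33297 probe sets, 12083 had no gene and 1754 several in the platform annotation, and 769 of the 18417 genes kept had more than 1 probe set. No filter on level was used, and arrays have no read depth, so their number limits the precision.

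A model with 1 mean per group was fitted by lmFit and eBayes of limma 3.58.1 under R 4.3.3 (two-sided, Benjamini and Hochberg over all 18417 genes of a comparison, threshold 0.05), and was tested on simulated data. Tables were made in pandas 2.3.3 and numpy 2.4.6 under Python 3.11.15, and figures in matplotlib 3.10.9. Errors are the SE of the model. Array weights were estimated gene by gene. No 2 arrays held identical values. The labels name no batch or scan date.

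The members, the 40 gene lists and the treatment of weak arrays were chosen with earlier results of these data known. Genes were named by 4 rules: called genes without overlap, with 18 and with 15 arrays, the 10 largest rises and falls against beads and the 5 largest of each in other comparisons, or the 5 lowest p-values where fewer than 5 genes were called; the 12 largest rises and 12 falls against beads by p with 15 arrays, with a group mean of at least 6, no overlap, and Jurkat MHC1+ replicate 1 on the same side; up to 5 members of each list by p against beads with 15 arrays; and 12 genes of prior interest. A further 5 genes were named after their values were seen.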

Additional observations from a re-analysis of the deposited data

Results flagged for a closer look

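The test of the difference between Jurkat MHC1+ and JinB8 MHC1+ EVs, both on HUVEC under the same capture protein, called 6 genes with 18 arrays, all lower with Jurkat MHC1+ EVs. Their differences were -2.10 for SNORA38B, -2.43 for SNORD38B, -1.34 for SNORD38A, -2.21 for SNORA65, -1.49 for SNORD104 and -2.26 for VTRNA1-1, each lower in 3 of 3 arrays. With 15 arrays the same test called 58 genes. There the differences were -2.18 for SNORA38B, -2.09 for SNORD38B, -1.35 for SNORD38A, -2.03 for SNORA65, -1.45 for SNORD104, -2.06 for VTRNA1-1, -1.43 for VTRNA1-2, -1.07 for VTRNA1-3 and -1.99 for SNORA50A. Among genes that are not small RNAs they were -1.14 for TXN, which encodes thioredoxin, -1.57 for the chemokine gene CCL20, -0.77 for UXT and -0.73 for NSMCE1, and the minor spliceosomal RNA RNU4ATAC had -0.93.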

How the results depend on the processing

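No paired analysis was possible because the labels give no replicate numbers, and replicates were numbered in accession order. Against IgG beads, 0 genes were called over 18 arrays and under every alternative except array weights (80), the array SD as a covariate (8) and beads and untreated cells as 1 control group (6). The pooled controls, the fit without both doubted arrays but with untreated replicate 3, and the trend, robust and filter settings of 15 arrays were chosen after seeing the data. Against untreated cells, 0 became 167 with array weights, 9 with the SD covariate and 3 with trend and robust fitting of 15 arrays. Against Jurkat CD63+ EVs, 0 became 157 with array weights and 1 with 16 arrays, 15 arrays, the SD covariate, 15 arrays with trend and robust, and 15 arrays without the lowest 50% of genes. Against JinB8 MHC1+ EVs, the 6 calls became 71 with 16 arrays, 58 with 15, 66 with 15 arrays, trend and robust, 33 with 15 arrays without the lowest 50% of genes, 39 with the SD covariate, 14 with only the groups compared, 6151 with array weights, 2 with quantile normalization again, 1 without the lowest 50% of genes, 1 against a minimum of 1.5-fold, and 1 to 2 when any 1 array was left out. List medians against beads often shifted from their values with 18 arrays. With 16 arrays 33 were counted as moved and 7 as the same. With 15 arrays these counts were 27 and 13, and with the SD covariate 23 and 17. The joint medians of the sterol and fatty acid genes and of the mitotic genes kept their direction in these fits. Directions turned in at least 1 setting for several named genes against beads, mitotic genes among them. CD47 (0.15 with 18 arrays) was -0.80 with 16, -0.34 with array weights, -0.19 with the SD covariate, -0.09 with pooled controls and -0.22 with 15 arrays, with their trend or filter settings and with both doubted arrays left out. In the same order MIR21 (0.19) was -1.07, -0.94, -0.75, -0.53 and -0.87, RSAD2 (0.40) was -0.82, -0.68, -0.44, -0.70 and -0.63, and SPDL1 (0.25) was -0.87, -0.68, -0.63, -0.50 and -0.60. Quantile normalization gave 0.24 for CEP55 and 0.16 for KIF23, and 16 arrays gave -0.05 for NPC1. Leaving out 1 array gave -0.05 to 2.23 for NPC1, -0.53 to 0.09 for ABCA1, -1.30 to 0.27 for DLGAP5, -0.87 to 0.81 for SPDL1, -0.71 to 0.42 for CEP55, -1.08 to 0.27 for TOP2A, -0.99 to 0.37 for KIF23, -1.07 to 0.91 for MIR21, -0.82 to 1.03 for RSAD2, -0.80 to 0.73 for CD47 and -1.0 to 0.12 for CENPF against untreated cells. Array weights lower the pull of arrays far from their group, and the causes of the other shifts were not tested.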
